A study of Mus musculus with 6 samples.

Results

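The DNA replication machinery was described here as a set of 39 mouse genes, chosen by name and matched by the symbol of each Ensembl identifier, out of 41388 genes in each library. They fall into 5 classes by role: 10 origin licensing genes, 6 genes of helicase activation, 17 genes of DNA synthesis at the fork, 4 genes of nucleotide supply and 2 chromatin partners of replication. All 39 were matched, all are protein coding, and all 39 passed the filter on low counts, with 17 to 4176 counts per gene and library. RNA-seq libraries came from KP2 cells, a pancreatic cancer line that was derived from a C57BL/6J KPC mouse, a genetically engineered model of pancreatic cancer, and kept for fewer than 10 passages. The 3 groups, each of 2 libraries, were wild type (WT), Irak4 knockout (KO) and the knockout with rescue; all cells grew in DMEM with 10% FBS. The knockout was made with lentiviral CRISPR vectors carrying guides against Irak4, the kinase that passes signals on from Toll-like and interleukin-1 receptors. What was put back for the rescue is not described in the labels, nor is a vector for the WT cells, and the labels do not say whether the KO line was a clone or a pool.

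DNA replication begins when the origin recognition complex, with Cdc6 and Cdt1, loads the MCM2-7 helicase on chromatin in G1 phase. At the start of S phase Cdc45 and the GINS complex join the helicase and switch it on, after which polymerase alpha-primase lays primers, replication factor C loads the PCNA clamp, polymerases epsilon and delta extend the strands, replication protein A covers single-stranded DNA, and Fen1 and Lig1 process and seal Okazaki fragments. Ribonucleotide reductase, thymidylate synthase and thymidine kinase supply the deoxynucleotides. Many of these genes are textbook targets of E2F factors and are transcribed most around the passage from G1 into S phase, so their messages are widely read as marks of cycling cells.

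The E2F words and the CCAAT box, a short promoter element, were looked for in the 250 bases before each annotated start in RefSeq on GRCm38.p6. Windows were matched for 32 of the 39 genes. At least 1 of 4 E2F words (TTTCCCGC, TTTGGCGC, TTTGCCGC and TTTCGCGC, on both strands) stood in 9 of these 32 genes (28.1%), against 2.16% of 27025 genes with a window and 4.02% of those that could be tested here. The 9 were Cdc6, Gins3, Mcm5, Mcm6, Mcm7, Orc1, Pola1, Rfc3 and Uhrf1. CCAAT, on both strands, stood in 22 of 32 (68.8%), against 37.5% of all genes and 40.9% of those tested, and 8 genes held both. Shown are the 3 genes with an E2F word that had the smallest adjusted p in KO against WT. They are written 5′ to 3′ on the plus strand, which is the gene's own strand in each case, with E2F and CCAAT matches in capitals. Mcm5 is chr8:75109259-75109508, where a pair of overlapping E2F words begin 153 and 149 bases before the start and CCAAT begins 77 and 22 bases before it. Uhrf1 is chr17:56304063-56304312, upstream of the second of its 2 annotated starts, with an E2F word at 185 and CCAAT at 150 and 107 bases. Cdc6 is chr11:98907982-98908150, with an E2F word on the opposite strand at 138 bases and no CCAAT in the stretch shown, which leaves out the part of the window that lies in an annotated exon. In the coordinates used for the counts Cdc6 starts at 98907801, so this stretch before the RefSeq start lies inside the gene.
Mcm5: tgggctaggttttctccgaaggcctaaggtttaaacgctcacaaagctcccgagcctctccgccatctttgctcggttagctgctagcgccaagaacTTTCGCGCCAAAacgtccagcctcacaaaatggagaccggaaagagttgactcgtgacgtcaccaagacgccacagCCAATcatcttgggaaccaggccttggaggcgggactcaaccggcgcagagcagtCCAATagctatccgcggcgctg
Uhrf1: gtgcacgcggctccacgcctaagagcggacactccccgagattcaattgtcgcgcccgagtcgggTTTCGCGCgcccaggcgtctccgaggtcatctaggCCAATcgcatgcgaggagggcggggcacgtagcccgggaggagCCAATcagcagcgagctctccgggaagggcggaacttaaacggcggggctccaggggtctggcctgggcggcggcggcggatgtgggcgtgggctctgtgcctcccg
Cdc6: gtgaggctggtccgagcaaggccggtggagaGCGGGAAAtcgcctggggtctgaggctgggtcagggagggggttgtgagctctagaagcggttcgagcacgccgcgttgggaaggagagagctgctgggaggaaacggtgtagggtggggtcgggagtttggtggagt

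Among the 32 genes, the 9 with an E2F word had a median log2 fold change of 0.83 in KO against WT (range 0.20 to 1.40) and the 23 without one 0.75 (range 0.01 to 1.29). With CCAAT the median was 0.79 in 22 genes, and without it 0.72 in 10. Pola1, with an E2F word, was among the 4 genes not called in that comparison. Of the 8 called genes at 2-fold or more, Mcm5, Cdc6 and Gins3 held an E2F word, and Mcm2, Mcm10, Rpa2, Fen1 and Rrm2 did not. Of the other words searched, the CHR words (TTTGAA and TTCGAA, on both strands) stood in 18.8% of the replication genes, 19.6% of all genes and 14.3% of those tested. The SP1 core (GGGCGG, on both strands) stood in 68.8% of the replication genes, 35.4% of all genes and 65.1% of those tested. A word match describes the letters of the window and does not show binding.

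Totals ranged from 7605328 to 11505983 counts per library. Irak4 stood at 37.9 and 37.6 normalised CPM (the count over the TMM-scaled library size) in WT, 20.4 and 21.8 in KO, and 492 and 211 in the rescue. Its KO libraries were lower than both WT libraries without overlap, at a log2 fold change of -0.84 that missed the call (edgeR adjusted p = 0.057), and the rescue libraries were the highest and far apart. Of the markers of the cell's origin, Krt8, Krt18 and Krt19 were abundant in all 6 libraries, whereas Epcam had 0.12 CPM in 1 WT library and was at 0 elsewhere. Several markers of immune cells (Cd3e, Adgre1, Lyz2), acinar cells (Cpa1, Prss1, Ptf1a) and fibroblasts (Dcn, Lum, Thy1) were at 0 in all 6, while others of the same lists were not, such as Cd68 at 3.93 to 4.57 CPM, Prss2 at 1.31 to 2.54 and Col1a1 at 7.45 to 20.5.

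The replication genes rose together in the KO cells: 35 of 39 were higher than in WT and 0 lower (edgeR quasi-likelihood test, Benjamini-Hochberg adjusted p under 0.05 over 12339 genes), where 23.2% of all genes tested were higher and 23.5% lower. The median log2 fold change was 0.74, which is 1.67-fold, against 0.01 over all genes tested, and single genes lay between 0.01 for Rpa3 and 1.40 for Mcm5. Gins1, Rfc4, Pola1 and Rpa3 were not called. In 38 of 39 genes both KO libraries were above both WT libraries, as in 39.1% of all genes. A change of 2-fold or more was called for 8 genes (3.7% of all genes), and 15 were past a test against a 1.5-fold change (3.88% of all genes): Mcm2, Mcm3, Mcm4, Mcm5, Cdc6, Mcm10, Gins3, Prim1, Pola2, Rpa1, Rpa2, Fen1, Rrm2, Tyms and Uhrf1. Summed over the set, normalised CPM were 2550 and 2858 in WT, 4961 and 4459 in KO, and 4079 and 3649 in the rescue. Libraries of whole cultures do not tell more cycling cells from more message per cell.

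**Figure D1:**
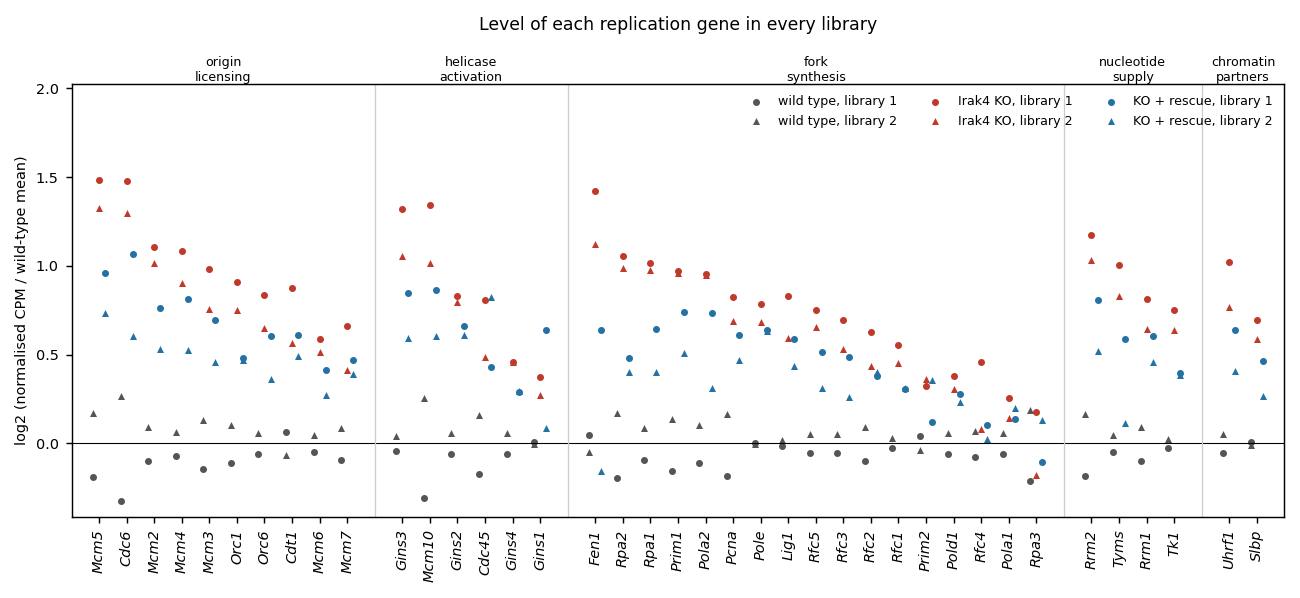
Level of each replication gene in every library, as the log2 of its normalised CPM over the WT mean (vertical axis), with genes grouped by class (horizontal axis); circles are first and triangles second libraries of WT (grey), KO (red) and rescue (blue). KO points stand above both WT points in 38 of 39 genes (39.1% of all genes tested). The mean of the rescue lies between those of WT and KO in 37 of 39. That holds for 57.8% of all genes tested and 84.1% of those called higher in KO than in WT.

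All 10 origin licensing genes rose in KO, with a median log2 fold change of 0.85. Mcm5, a subunit of the MCM2-7 helicase (GRCm38 chromosome 8, 75109528 to 75128439, plus strand), had 107.0 and 137.2 CPM in WT, 341.3 and 305.8 in KO, and 237.5 and 202.7 in the rescue. The 3 pairs did not overlap, with WT lowest and KO highest. Its log2 fold change in KO against WT was 1.40 ± 0.12 (SE; edgeR adjusted p = 7.9e-06), the smallest adjusted p of the 39 genes as well as the largest change. Cdc6, the ATPase that helps the origin recognition complex load the helicase, had 17.0 and 25.5 CPM in WT, 59.3 and 52.3 in KO, and 44.5 and 32.2 in the rescue. Here too the pairs stood in the order WT, rescue, KO, at 1.38 ± 0.18 in KO against WT (edgeR adjusted p = 1.1e-04). Its partner in loading, Cdt1, changed less, by 0.73 ± 0.11, and its rescue libraries overlapped those of KO.

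The helicase subunits did not rise to the same extent. Mcm2, whose subunit forms part of the ring's entry gate with Mcm5, had 113.8 and 129.9 CPM in WT, 262.3 and 246.5 in KO, and 206.6 and 175.7 in the rescue, at 1.06 ± 0.10 in KO against WT (edgeR adjusted p = 1.4e-05). Mcm4, a subunit of the ring's catalytic core, rose by 0.99 and Mcm3 by 0.87. The smallest changes of the class were those of Mcm6, at 0.55, and Mcm7, at 0.54 ± 0.10. Mcm7 (chromosome 5, 138164583 to 138172422, minus strand) had 145.5 and 164.6 CPM in WT, 245.6 and 206.6 in KO, and 215.0 and 203.1 in the rescue. Its KO and rescue libraries overlapped, and both pairs stood above WT. Of the origin recognition complex, Orc1, its cycle-regulated large subunit, rose by 0.83 ± 0.15 from a low level (9.26 and 10.7 CPM in WT, 18.8 and 16.8 in KO, 13.9 and 13.9 in the rescue), and Orc6 by 0.75 ± 0.11.

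In helicase activation 5 of 6 genes rose, with a median log2 fold change of 0.73. Gins3, a GINS subunit (chromosome 8, 95633559 to 95645059, plus strand), had 8.55 and 9.09 CPM in WT, 22.0 and 18.3 in KO, and 15.9 and 13.3 in the rescue. The pairs did not overlap, and the change in KO was 1.20 ± 0.16 (edgeR adjusted p = 1.4e-04). Gins2 had the smallest adjusted p of the class (9.3e-05 by edgeR), with 23.3 and 25.2 CPM in WT, 43.0 and 42.1 in KO, and 38.3 and 37.0 in the rescue, a log2 fold change of 0.81 ± 0.10. Gins1 was the class's uncalled gene: 18.4 and 18.3 CPM in WT, 23.7 and 22.1 in KO and 28.5 and 19.4 in the rescue, at 0.33 ± 0.16 (edgeR adjusted p = 0.126). Its KO libraries were above WT, while its rescue libraries lay on either side of KO. Mcm10, which helps to start unwinding and to bring in polymerase alpha, rose by 1.18 ± 0.17, Cdc45 by 0.66 ± 0.16 and Gins4 by 0.45 ± 0.09. The call for Cdc45 was lost without the first WT library or without the first KO library.

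Of the 17 fork genes 14 rose, with a median of 0.70, and this class held 3 of the 4 uncalled genes as well as some of the larger changes. Fen1, the flap endonuclease of Okazaki fragment processing (chromosome 19, 10199132 to 10204169, minus strand), had only 2.61 and 2.44 CPM in WT, 6.77 and 5.50 in KO, and 3.93 and 2.26 in the rescue. KO was highest, and the rescue libraries lay on either side of WT. The change in KO was 1.29 ± 0.28 (edgeR adjusted p = 0.003), the largest of the class and the one with the widest error; it rests on 17 to 81 counts per library, and Fen1 did not pass a filter of 50 counts in 2 libraries. Lig1, the ligase that seals the fragments, rose by 0.72 ± 0.10 and Pcna, the sliding clamp, by 0.75 ± 0.11.

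Replication protein A, the trimer that covers single-stranded DNA, split by subunit. Rpa1, its large subunit (chromosome 11, 75298166 to 75348324, minus strand), had 89.5 and 101.5 CPM in WT, 193.3 and 187.8 in KO, and 149.5 and 126.4 in the rescue, at 0.99 ± 0.10 in KO (edgeR adjusted p = 2.1e-05, the smallest of the class). Rpa2 had 20.7 and 26.6 CPM in WT, 49.0 and 46.8 in KO, and 33.0 and 31.2 in the rescue, at 1.01 ± 0.12 (edgeR adjusted p = 7.1e-05). For both, KO was highest, WT lowest and the pairs apart. Rpa3, the small subunit (chromosome 6, 8255936 to 8259173, minus strand), had 13.4 and 17.7 CPM in WT, 17.6 and 13.8 in KO, and 14.5 and 17.0 in the rescue. All 3 pairs overlapped, at 0.01 ± 0.18 in KO against WT (edgeR adjusted p = 0.961), and the sign of this value changed with the scaling.

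Polymerase alpha-primase also split. Pola2, its regulatory subunit, had 43.8 and 50.8 CPM in WT, 91.6 and 91.2 in KO, and 78.6 and 58.6 in the rescue, at 0.95 ± 0.13 (edgeR adjusted p = 1.4e-04), with no overlap between pairs. Prim1, the catalytic primase, rose by 0.96 ± 0.12, and Prim2, the large primase subunit, by 0.34 ± 0.11, a call that was lost with DESeq2 and without any 1 of the 4 WT and KO libraries. Pola1, the catalytic polymerase subunit (chromosome X, 93304767 to 93632155, minus strand), had 58.8 and 63.6 CPM in WT, 72.9 and 67.6 in KO, and 67.2 and 70.2 in the rescue. Its KO libraries stood above WT by 0.20 ± 0.09, which missed the call (edgeR adjusted p = 0.089). Of the leading and lagging strand polymerases, Pole rose by 0.74 ± 0.08 and Pold1 by 0.34 ± 0.08; without the first WT library or the first KO library the call for Pold1 was lost. Among the clamp loader genes, Rfc1, Rfc2, Rfc3 and Rfc5 rose between 1.42-fold and 1.63-fold. Rfc4 (chromosome 16, 23113943 to 23127737, minus strand) had 20.3 and 22.5 CPM in WT, 29.4 and 22.6 in KO, and 23.0 and 21.7 in the rescue, at 0.29 ± 0.14 (edgeR adjusted p = 0.117). Its second KO library lay just above WT.

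All 4 nucleotide supply genes rose, with a median of 0.83. Rrm2, the small subunit of ribonucleotide reductase whose level limits the enzyme in S phase (chromosome 12, 24708241 to 24714146, plus strand), had 136.0 and 173.0 CPM in WT, 349.0 and 316.1 in KO, and 270.4 and 221.3 in the rescue. WT was lowest, KO highest and the pairs apart, with a change of 1.10 ± 0.13 in KO (edgeR adjusted p = 4.5e-05). Rrm1, the large subunit, rose by 0.73 ± 0.10. Tyms, which makes dTMP from dUMP and is the target of fluorouracil, had 27.8 and 29.7 CPM in WT, 57.7 and 51.0 in KO, and 43.2 and 31.2 in the rescue, at 0.92 ± 0.14 (edgeR adjusted p = 2.9e-04). Its rescue libraries lay between the other groups and apart from each other, the second near WT. Tk1, the salvage kinase of thymidine (chromosome 11, 117815526 to 117826092, minus strand), changed least, with 61.7 and 64.0 CPM in WT, 106.0 and 98.0 in KO, and 82.8 and 82.0 in the rescue, at 0.70 ± 0.09 (edgeR adjusted p = 7.6e-05). Its rescue pair lay midway and apart from both.

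Both chromatin partners rose. Uhrf1, which brings the maintenance DNA methyltransferase to newly copied DNA (chromosome 17, 56303321 to 56323486, plus strand), had 115.9 and 124.7 CPM in WT, 243.7 and 204.8 in KO, and 187.2 and 159.3 in the rescue, at 0.90 ± 0.11 (edgeR adjusted p = 6.6e-05). Slbp, which binds the stem-loop of replication-dependent histone messages (chromosome 5, 33634952 to 33652574, minus strand), had 43.9 and 43.5 CPM in WT, 70.6 and 65.6 in KO, and 60.2 and 52.5 in the rescue, at 0.64 ± 0.10 (edgeR adjusted p = 3.0e-04). In both genes the rescue pair stood between WT and KO without overlap.

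Set side by side, the medians in KO against WT were 0.85 for origin licensing, 0.83 for nucleotide supply, 0.73 for helicase activation and 0.70 for fork synthesis, and the ranges of the classes overlapped. The difference between classes was not tested. As summed CPM, origin licensing went from 939.0 and 1064 in WT to 1971 and 1748 in KO, a ratio of means of 1.86. Nucleotide supply went from 407.5 and 474.8 to 855.2 and 770.2, a ratio of 1.84, and fork synthesis from 900.7 and 983.5 to 1541 and 1425, a ratio of 1.57. Helicase activation had a ratio of 1.69 and the chromatin partners 1.78. In each class both KO libraries were above both WT libraries and the rescue libraries lay between.

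**Figure D2:**
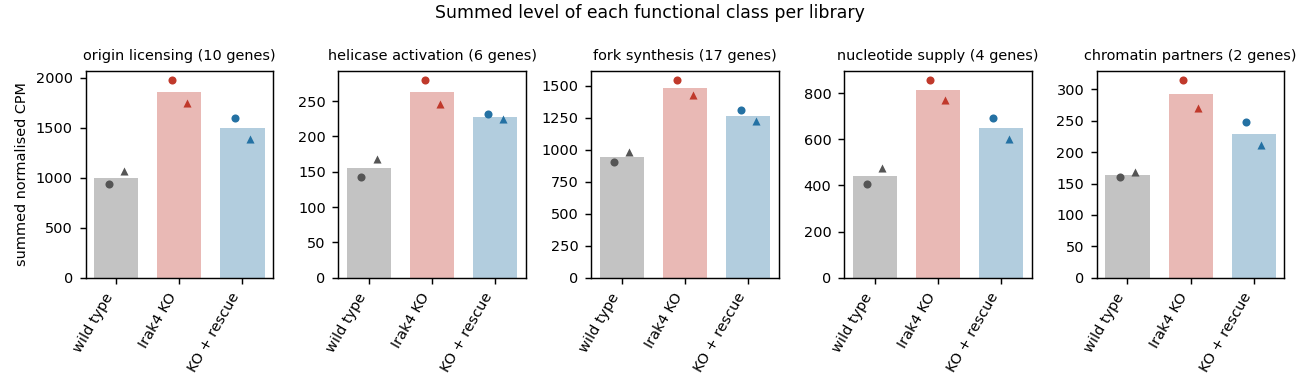
Summed normalised CPM of each functional class (vertical axis, from 0) for WT, KO and rescue (horizontal axis); bars are the mean of 2 libraries, circles the first and triangles the second library. In each of the 5 classes the KO libraries are highest and the WT libraries lowest, with KO to WT ratios from 1.57 for fork synthesis to 1.86 for origin licensing.

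Levels per kilobase (normalised RPKM) set the subunits of 1 complex side by side. They use the listed length of each gene, which need not be the length of its expressed message. Levels between genes therefore depend on these lengths, whereas the change of a gene pair's ratio between groups does not. Mcm7 also overlaps exons of genes on the opposite strand. The 6 genes of the MCM2-7 helicase, whose subunits enter the complex in equal parts, had nearly equal RPKM in WT. They ran from 34.95 for Mcm4 to 39.8 for Mcm3, a ratio of highest to lowest of 1.14. In KO they ran from 51.1 for Mcm7 to 94.5 for Mcm5, a ratio of 1.85, and in the rescue from 47.2 to 64.3 for the same genes, a ratio of 1.36. Library by library the ratio was 1.16 and 1.19 in WT, 1.80 and 1.91 in KO, and 1.43 and 1.30 in the rescue, so the pairs did not overlap. A single RPKM ratio, Mcm5 to Mcm7, was 0.951 and 1.08 in WT, 1.80 and 1.91 in KO, and 1.43 and 1.29 in the rescue. Mcm5 and Mcm7 are the helicase genes with the largest and smallest change in KO, so a rise of this ratio followed from the choice. In both KO libraries it is the same value as the ratio of highest to lowest. These ratios are a description of values also used in the fold changes above, with no test of their own.

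Pairs of subunits were also compared in other complexes, with the pairs chosen after their values were seen. Rpa1 to Rpa3 was 1.36 and 1.17 in WT, 2.24 and 2.78 in KO, and 2.11 and 1.51 in the rescue. Pola2 to Pola1 was 2.29 and 2.45 in WT, 3.86 and 4.14 in KO, and 3.59 and 2.56 in the rescue. Both pairs of ratios were thus highest in KO and lowest in WT, with the rescue libraries spread between. Prim1 to Prim2 was 1.23 and 1.59 in WT, 2.20 and 2.12 in KO, and 2.16 and 1.56 in the rescue, whose second library was within the WT range. Rrm2 to Rrm1 was 1.08 and 1.20 in WT, 1.47 and 1.49 in KO, and 1.32 and 1.19 in the rescue, where the second rescue library was at the WT level. Over whole complexes the picture was not the same: the ratio of the highest to the lowest subunit of replication protein A was 2.33 and 2.05 in WT and 2.24 and 2.78 in KO, which overlap. In GINS the spread narrowed: the RPKM of Gins4 was 7.88 times that of Gins3 in WT and 4.73 times in KO. In replication factor C the ratio of the highest gene, Rfc2, to the lowest, Rfc3, was 5.06 in WT and 4.77 in KO.

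**Figure D3:**
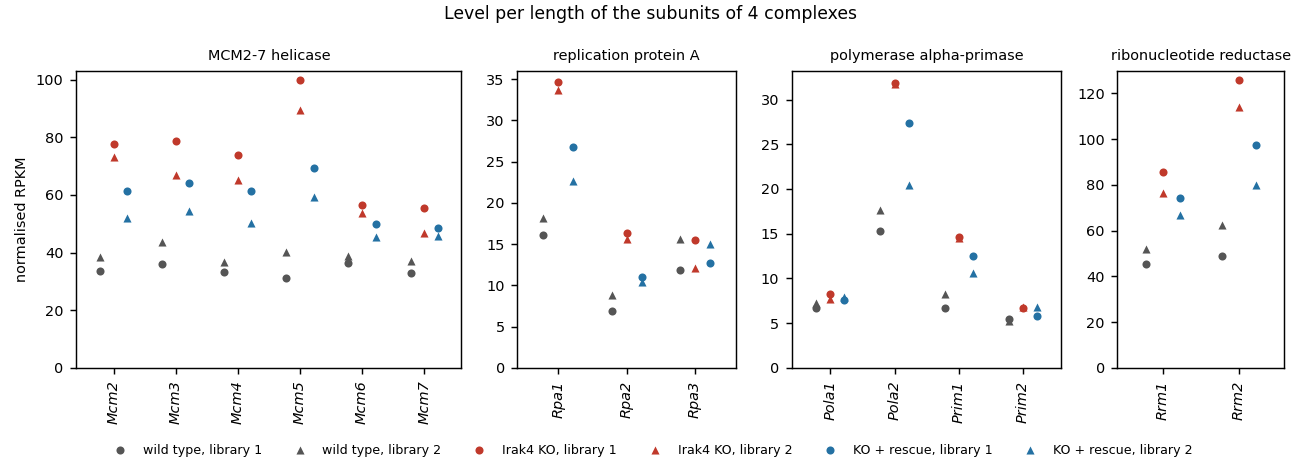
Normalised RPKM (vertical axis, from 0) of the subunit genes of the MCM2-7 helicase, replication protein A, polymerase alpha-primase and ribonucleotide reductase (horizontal axis) in each library; circles are first and triangles second libraries of WT (grey), KO (red) and rescue (blue). The 6 MCM genes lie close together in WT and spread in KO, where Mcm5 is highest at 94.5 and Mcm7 lowest at 51.1, while Rpa3 and Pola1 stay near their WT points.

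In the rescue against KO, 10 of 39 replication genes fell and 0 rose (5.88% of all genes tested fell and 8.35% rose). They were Mcm2 and Mcm5 of origin licensing, Pola2, Rpa1, Rpa2 and Fen1 of the fork, Rrm2, Tyms and Tk1 of nucleotide supply, and Uhrf1. The fitted value was below 0 in 38 of 39 genes, with a median of -0.26 (0.837-fold) against -0.0037 over all genes tested, and both rescue libraries were below both KO libraries in 31 of 39 (30.1% of all genes). Without either KO library 0 of the 10 calls were left, without either WT library 5, without the second rescue library 3, and without the first rescue library 21 genes were called; without the first KO library the median was -0.17. With the replicate number as a block 6 of the 10 were called; Pola2, Rrm2, Tk1 and Uhrf1 were not.

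By class, 3 of 4 nucleotide supply genes fell (median -0.37), 1 of 2 chromatin partners (-0.32), 4 of 17 of fork synthesis (-0.22), 2 of 10 of origin licensing (-0.31) and 0 of 6 of helicase activation (-0.17). Without the first KO library the medians were -0.14 for fork synthesis and -0.19 for origin licensing, and without the second rescue library that of origin licensing was -0.18. These shares rest on few genes, and the difference between them was not tested. Among the called genes, Fen1 fell by 0.99 ± 0.28 (edgeR adjusted p = 0.040), Rpa2 by 0.58 ± 0.12 (0.012), Mcm5 by 0.56 ± 0.12 (0.013) and Tyms by 0.55 ± 0.14 (0.025), and all 4 had rescue libraries below both KO libraries. Rpa1 fell by 0.47 ± 0.10 (edgeR adjusted p = 0.013) and Rrm2 by 0.44 ± 0.12 (0.038). Cdc6, at -0.54 ± 0.17, missed the call (edgeR adjusted p = 0.057), as did Gins3 at -0.47 ± 0.16 (0.063). Cdc45, at -0.02 ± 0.15, had 58.9 and 47.1 CPM in KO and 45.4 and 59.5 in the rescue, the same range, against 29.8 and 37.5 in WT.

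Compared with WT, the rescue still had 30 of 39 replication genes higher and 0 lower (10.2% of all genes tested were higher and 12.0% lower). The median was 0.49 (1.40-fold) against 0.01 over all genes tested, and in 36 of 39 genes both rescue libraries were above both WT libraries (31.2% of all genes). By class 9 of 10 origin licensing genes were higher (median 0.57), 5 of 6 of helicase activation (0.63), 11 of 17 of fork synthesis (0.39), 3 of 4 of nucleotide supply (0.46) and both chromatin partners (0.45). Pole, at 0.64 ± 0.08 (edgeR adjusted p = 2.6e-04), and Mcm5, at 0.85 ± 0.12 (5.9e-04), had the smallest adjusted p. The 9 genes not called were Orc1, Gins1, Rfc3, Rfc4, Pola1, Prim2, Rpa3, Fen1 and Tyms; of these, Tyms (0.37 ± 0.15, edgeR adjusted p = 0.094) and Fen1 (0.30 ± 0.34, 0.564) had been called in both other comparisons. Without the first WT library 6 of the 30 calls were left, and 0 of the 39 genes were past a test against a 1.5-fold change (1.6% of all genes).

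The rescue mean lay between the WT and KO means in 37 of 39 genes, the exceptions being Gins1 and Rpa3. The same held for 57.8% of all genes tested and 84.1% of those called higher in KO than in WT. The 3 comparisons share libraries, so their values are not independent of each other: for Mcm5 they were 1.40, -0.56 and 0.85 (KO against WT, rescue against KO, rescue against WT), for Rrm2 1.10, -0.44 and 0.67, for Uhrf1 0.90, -0.37 and 0.53, and for Pole 0.74, -0.10 and 0.64. Pole thus stood near its KO level in the rescue, and Fen1, at 1.29, -0.99 and 0.30, near its WT level. Neither was tested for being apart from the other genes.

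**Figure D4:**
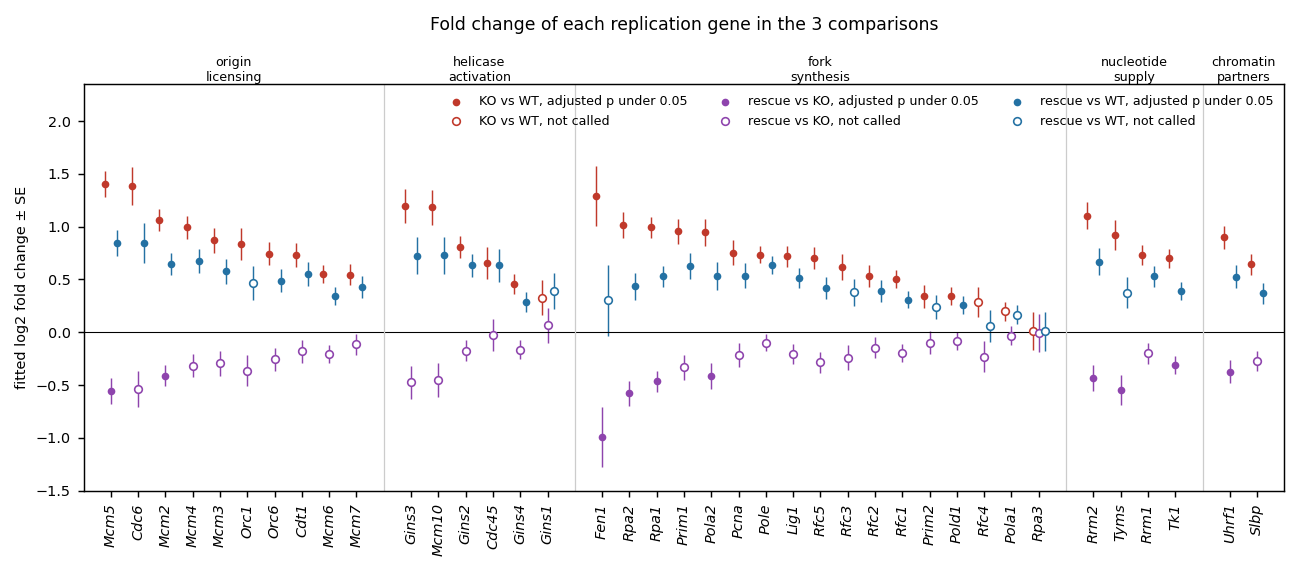
Fitted log2 fold change with its SE (vertical axis) of each replication gene (horizontal axis, by class) for KO against WT (red), rescue against KO (purple) and rescue against WT (blue); filled points were called at an edgeR adjusted p under 0.05 and open points were not. Red points are filled for 35 of 39 genes, all higher (23.2% of all genes tested were higher). Purple points are filled for 10, all lower (5.88% of all genes), and blue for 30, all higher (10.2% of all genes). Purple points lie below 0 for 38 of 39, with a median of -0.26 against -0.0037 over all genes tested.

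Replicate libraries of 1 group also differed in the replication genes as a set. The second WT library was the higher one for 33 of 39 genes, with a median log2 ratio of second to first library of 0.12. In KO the second library was the higher one for 2 of 39 genes and in the rescue for 7, with medians of -0.16 and -0.15. Over all genes tested the same medians were 0.0046, -0.0031 and 0. These shifts within groups are smaller than the median of 0.74 between KO and WT, and nearer in size to the median of -0.26 between the rescue and KO.

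Genes that act beside these were counted from lists of neighbouring functions. Over all genes tested, 23.2% rose and 23.5% fell in KO against WT. Of 16 other origin and helicase genes 9 rose and 1 fell in KO against WT (median 0.44), among them Wdhd1 (0.74), Topbp1 (0.62) and Donson (0.73), which help to build the active helicase; Orc3, a core subunit of the origin recognition complex, fell by 0.34. Other fork genes rose in 14 of 19 tested and fell in 0 (median 0.56), with Clspn (1.16) and Timeless (0.94), mediators at the moving fork, and Pclaf (0.87), a PCNA-binding protein. Other nucleotide supply genes rose in 20 of 24 and fell in 1 (median 0.69). They include Mthfd1 (1.11) of folate metabolism, Gart (0.89) of purine synthesis and Nme1 (1.07), a nucleoside diphosphate kinase. Rrm2b, the ribonucleotide reductase subunit known as a p53 target, fell by 0.38. Of 11 replication-coupled chromatin genes 10 rose (median 0.67), with the assembly factors Chaf1a (0.81) and Chaf1b (0.98) and Supt16 (0.71) of the FACT complex.

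Of 29 genes of E2F and G1/S control, 17 rose and 6 fell in KO against WT, where 23.2% of all genes tested rose and 23.5% fell. The share of this list that fell was thus near that of all genes. Ccne1, the cyclin E gene, had 7.01 and 9.28 CPM in WT, 26.6 and 24.5 in KO, and 20.7 and 16.4 in the rescue, at 1.64 (edgeR adjusted p = 2.7e-05). Cdkn1a, the p21 inhibitor of cyclin-dependent kinases, had 208 and 176 CPM in WT, 35.3 and 19.1 in KO, and 54.9 and 111 in the rescue, at -2.79 (edgeR adjusted p = 2.7e-05). Ccne1 thus stood highest in KO and Cdkn1a lowest, and in both the rescue pair lay between. Cdkn2c, an inhibitor of the cyclin D kinases, rose by 1.05. Among 26 mitosis genes 15 rose and 0 fell (median 0.37), with Cdc20 (0.94), an activator of the anaphase-promoting complex, and the mitotic kinesins Kif20a (0.69) and Kif2c (0.64). Replication stress response genes rose in 13 of 21 tested and fell in 1 (median 0.39), with Nbn (0.98) of the MRN complex and the exonuclease Exo1 (0.97) higher, while Hltf, a fork remodeller, fell by 0.29. In the rescue against KO, where 5.88% of all genes fell and 8.35% rose, 9 of the 24 other nucleotide supply genes, 5 of the 19 other fork genes, 4 of the 26 mitosis genes, 2 of the 11 chromatin genes and 1 of the 16 other origin and helicase genes fell, and 0 of each rose. Of the E2F and G1/S control genes 3 fell and 2 rose, and of the replication stress response genes 1 fell and 1 rose.

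Epithelial and ductal markers moved the other way: 8 of 9 tested fell in KO and 0 rose, where 23.5% of all genes tested fell and 23.2% rose. Their summed CPM went from 7057 and 6746 in WT to 3911 and 4014 in KO, with 4784 and 5644 in the rescue. Fibroblast markers summed to 13.4 to 14.1 CPM in WT, 16.3 to 24.2 in KO and 28.0 to 29.8 in the rescue. Of the 4 tested, 1 was called in KO against WT, Col3a1, at 0.594 and 0.195 CPM in WT against 9.19 and 6.07 in KO. Col1a1, the most abundant of the list in WT, had 12.8 and 11.5 CPM there and 11.9 and 7.45 in KO. Its log2 fold change of -0.30 was not called. Endothelial markers summed to 4.87 to 5.67 CPM in WT, 16.0 to 30.9 in KO and 14.9 to 38.2 in the rescue. Cdh5 made up most of this, with 2.97 and 3.62 CPM in WT and 15.9 and 30.5 in KO, while Kdr, the other endothelial marker tested, fell from 1.54 and 1.66 CPM in WT to 0.084 and 0.115 in KO (edgeR adjusted p = 9.4e-04). Acinar markers summed to 2.37 to 2.83, 4.18 to 4.35 and 3.73 to 3.80 CPM, and immune markers to 4.27 to 4.69, 4.47 to 4.51 and 4.53 to 4.82, mostly Cd68. The part of these changes in the rise of the replication genes was not tested.

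The 39 genes lie on 14 chromosomes, and 38 of them were above the median log2 fold change of the tested genes of their own chromosome in KO against WT, where these medians ran from -0.08 to 0.14. For 12 genes an exon overlaps a gene on the opposite strand in GENCODE M21, among them Mcm7, Orc6, Gins2, Rfc4, Fen1 and Tk1, and as no strand setting is given reads of such pairs cannot be told apart. Of these 12, 11 were higher in KO (median 0.71), and of the other 27, 24 (median 0.87). Pcna has the listed pseudogenes Pcna-ps1 and Pcna-ps2, with 0 to 7 counts per library, and Tyms has Tyms-ps, not analysed here; how reads shared with pseudogenes were counted is not given.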

How the data were processed

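mRNA of KP2 cells was taken with oligo-dT from Trizol RNA, per the labels' protocols. Per the submitters' processing notes, the tools named are bcl2fastq, STAR 2.0.4b, Subread and featureCounts 1.45 and the build is GRCm38; neither strand setting nor annotation release is given in the sources used here. The deposited files list the count of reads, the CPM and the RPKM of every gene, per the file headers. The deposited CPM was the count over the file's total, and the deposited RPKM that CPM per kilobase of the listed length (largest differences 3.3e-11 and 7.6e-11). Only the counts were analysed, and the authors' CPM and RPKM served as checks.

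Symbols came from GENCODE M21 for 40254 of 41388 identifiers. Genes were kept with filterByExpr (minimum count 10, minimum total 15), scaled by TMM and tested with edgeR 4.0.16 (quasi-likelihood test, R 4.3.3) over all 6 libraries (3 residual degrees of freedom), with Benjamini-Hochberg adjustment over 12339 genes and calls at an adjusted p under 0.05. Normalised CPM and RPKM use the TMM-scaled library size. The alternatives were other scalings (RLE, total counts, upper quartile), no filter, a stricter filter of 50 counts in 2 libraries, DESeq2 1.42.0, limma voom (limma 3.58.1), only the groups compared, a replicate block, a test against a 1.5-fold change, and each library left out in turn, where a group's lone library is assumed to vary like the other groups; the crossed replicate block was chosen after seeing the data. The labels do not say that replicates were separate cultures, so the p-values cover no more than the spread among these libraries, and that may be technical. Replicate pairs differed beyond sampling noise (chi-square per degree of freedom 3.49 in WT, 4.15 in KO, 8.01 in the rescue). Promoters were those of RefSeq on GRCm38.p6.

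The genes and lists were chosen with earlier results of these data known. Values by library were given for the genes of each class with the largest and smallest change, the smallest adjusted p or no call in KO against WT, and for Cdc6, Mcm2, Rpa2, Pola2, Tyms, Orc1 and Cdc45, chosen after their values were seen; of each other list, up to 3 genes with the smallest adjusted p and, where 5 or fewer, those against its direction were named. A gene that this rule names is not reported here.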

Additional observations from a re-analysis of the deposited data

How the results depend on the processing

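In KO against WT, 34 to 38 of the replication genes were called higher under the other scalings, filters, tools and fits, 15 in the test against a 1.5-fold change, and 32 to 36 with 1 library left out; apart from the 1.5-fold test, 31 genes were called in every setting. Scaling by total counts, which put the median of all genes at 0.14, raised the median of every class. The medians were then 0.98 for origin licensing, 0.86 for helicase activation, 0.83 for fork synthesis, 0.95 for nucleotide supply and 0.90 for the chromatin partners. The 10 genes lower in the rescue than in KO became 17 with total counts, 16 with no filter, 6 with the replicate block, 5 with only the groups compared, 0 in the 1.5-fold test, and 0 to 21 with 1 library left out. The 30 genes higher in the rescue than in WT became 0 in the 1.5-fold test, 23 with DESeq2, 27 with the replicate block, and 6 to 32 with 1 library left out. With 1 library left out, the median of the 39 genes in the rescue against KO ranged from -0.36 to -0.17, and the medians in the rescue against WT ranged from 0.48 to 0.73 for helicase activation, 0.40 to 0.59 for nucleotide supply and 0.33 to 0.55 for the chromatin partners. The direction of each class median held in every setting. Of the single genes, Rpa3 changed sign in KO against WT with RLE factors (-0.00041), the stricter filter (-0.0039) and DESeq2 (-0.0023), and ranged from -0.20 to 0.23 with 1 library left out. In the rescue against KO it did so with the stricter filter (0.0038), DESeq2 (0.0062) and only the groups compared (0.0010), and ranged from -0.16 to 0.20. In the rescue against WT it did so with RLE factors (-0.0017) and the stricter filter (-0.00013), and ranged from -0.17 to 0.23. With 1 library left out, values on both sides of 0 were also found in the rescue against KO for Mcm7 (-0.24 to 0.021), Cdc45 (-0.23 to 0.16), Gins1 (-0.24 to 0.31), Pola1 (-0.090 to 0.027) and Prim2 (-0.22 to 0.014), and in the rescue against WT for Rfc4 (-0.0091 to 0.14) and Fen1 (-0.16 to 0.64). Within 100 bases of the start, 12.5% of the genes held an E2F word (0.981% of all genes) and 6.25% a CHR word (7.18%).

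Whether the replicate numbers pair the libraries is not known. Same-numbered libraries correlated in their deviations at 0.037 (WT and KO), -0.153 (WT and rescue) and -0.192 (KO and rescue). Each group gives a lone pair of libraries, so these values cannot exclude shared handling. With the pairing crossed 15 genes were lower in the rescue than in KO. The cause of these shifts was not tested, beyond the fewer libraries of the fits that leave 1 out.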
